A study of Ascaris suum with 10 samples.

Results

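The germinal zones of the testis and the ovary of Ascaris suum, the large roundworm of the pig, were compared by RNA sequencing. Both libraries were taken as the submitters labelled them, which makes 2 samples of the 10 in the series, and all 15446 genes of the expression table entered the comparison. The testis library is from the germinal zone of adult males and the ovary library from the germinal zone of adult females. All samples belong to a wild population from North America, and the labels name no mutation or treatment. The 8 other samples are embryos incubated for 24, 46 and 64 hr, which share 1 column of the table, second-stage larvae of 7 days, and adult intestine, muscle with hypodermis, and the carcasses of males and of females, which hold hypodermis, muscle, neurons and pharynx. The labels give a sex for the gonads and the carcasses only. The sources used here do not give the number of worms in a library.

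Nematode gonads are long tubes in which germ cells multiply at the blind end and then pass through meiosis. In the male, germ cells become amoeboid sperm that crawl with the help of the major sperm protein instead of actin, and sperm are built from transcripts made before the meiotic divisions end. In the female, oocytes are loaded with RNA and protein that serve the early embryo. Ascaris is also known for discarding parts of the germline genome from its somatic cells at the first cleavages, and the title of the series names genes silenced by this loss. The table gives identifiers only, so no gene could be named, no family could be assigned, and the labelled tissues could not be checked against their marker genes.

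Each gonad had 1 library. Every difference below compares these libraries, has no replicate error and carries no test. Values are RPKM, reads per kilobase of gene model scaled to the mapped reads of the library, which allow levels of different genes to be compared per length. Read totals are unknown. A germinal zone is a tissue, so a lower value cannot be told apart from fewer cells of a type that holds the transcript. Closely similar gene copies could not be recognised, and reads may be split between them.

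On the deposited scale testis had fewer genes far above ovary than ovary had above testis, but the testis genes stood at much higher levels. Which side had more genes turned under 2 of 4 rescalings of the columns, with 2122 testis-high against 1120 ovary-high genes by the median of ratios and 1847 against 1744 by the upper quartile. A gene was called testis-high or ovary-high when log2((testis + 1)/(ovary + 1)) was at least 2 or at most -2, a 4-fold difference on that scale. By this rule 1602 genes (10.4% of the table) were testis-high and 3068 (19.9%) were ovary-high, together 30.2%. The same rule called 5.98% of genes between male and female carcass, the 2 libraries whose labels list the same tissues. The median testis-high gene stood at 64.0 RPKM in testis and 2.80 in ovary. The median ovary-high gene stood at 2.1 RPKM in testis and 24.55 in ovary.

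**Figure D1:**
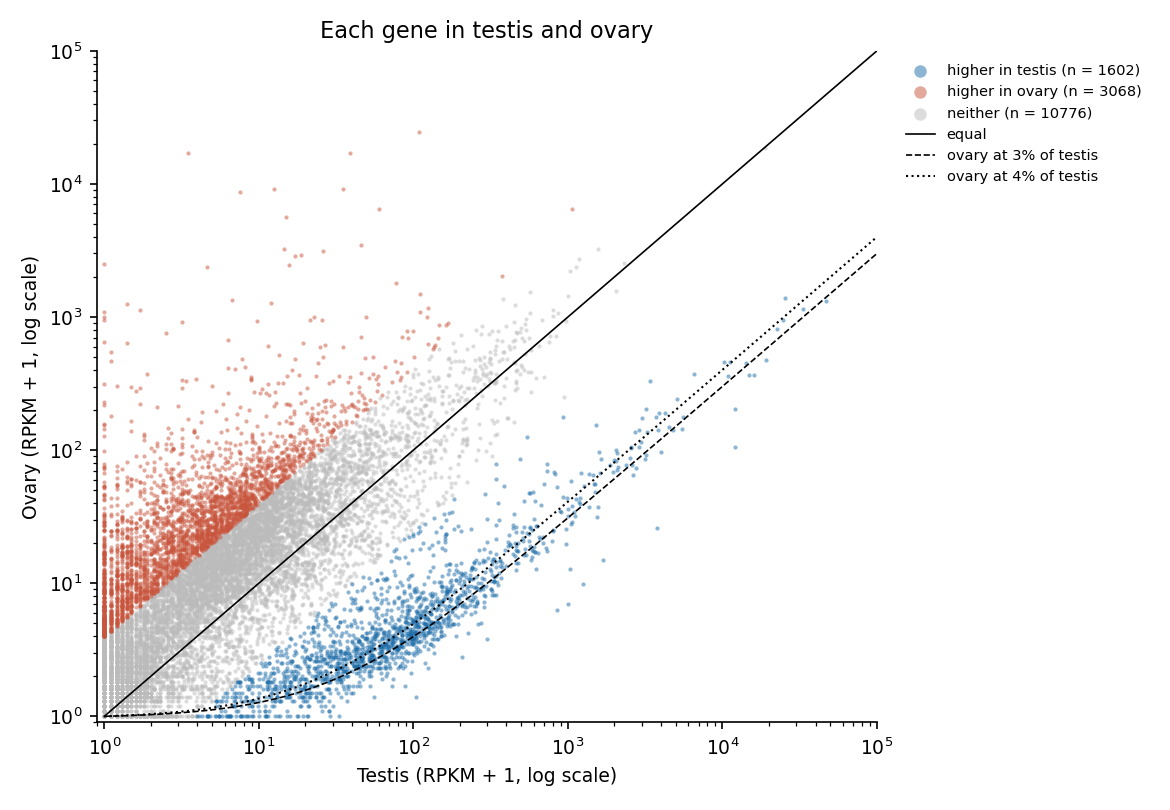
Each point is 1 of 15446 genes, with testis on the horizontal and ovary on the vertical axis (RPKM + 1, log scales). Testis-high genes (1602, blue) gather along the lines that mark ovary values of 3% and 4% of testis, whereas ovary-high genes (3068, red) scatter without such a band.

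The direction of the differences depended on the level of the gene. Genes were sorted by the higher of their 2 gonad values. Among the 4662 genes at 1 to 10 RPKM, 117 (2.51%) were testis-high and 661 (14.2%) ovary-high. Among the 6752 genes at 10 to 100 RPKM, 919 (13.6%) were testis-high and 2075 (30.7%) ovary-high. The balance was the other way round at higher levels. Of the 1285 genes at 100 to 1000 RPKM, 485 (37.7%) were testis-high and 304 (23.7%) ovary-high. Of the 124 genes at 1000 RPKM or more, 81 (65.3%) were testis-high and 28 (22.6%) ovary-high. None of the 2623 genes below 1 RPKM in both gonads could pass the rule. The median log2 ratio was -1.39 at 10 to 100 RPKM, -0.19 at 100 to 1000 and 4.48 at 1000 or more, against -0.83 over all genes.

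The highest stratum held few genes of similar level in both gonads. Only 8 of the 124 genes at 1000 RPKM or more lay within a log2 difference of 1, or 6.45%, against 20.2% at 100 to 1000 RPKM, 22.7% at 10 to 100 and 40.3% at 1 to 10. In the carcass pair this share was 62.1% among 174 genes of the highest stratum and 73.2% in the stratum of 1 to 10 RPKM. Taking each gonad alone, testis held 89 genes at 1000 RPKM or more, of which 81 were testis-high, 1 was ovary-high and 7 were neither. Ovary held 46 such genes, of which 3 were testis-high, 28 ovary-high and 15 neither.

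**Figure D2:**
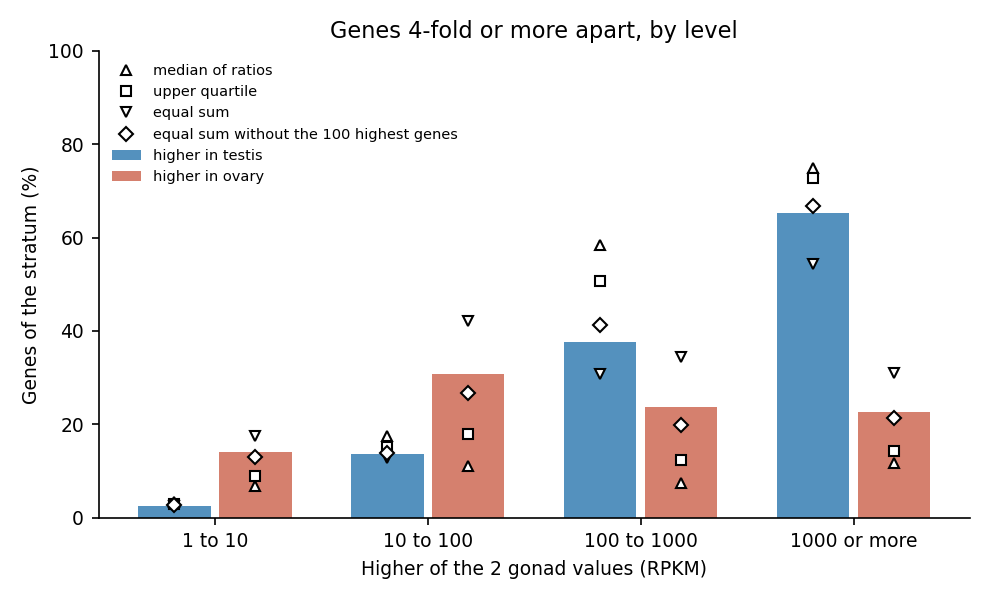
Bars give the percentage of genes in each stratum of the higher gonad value (RPKM) that were testis-high (blue) or ovary-high (red) as deposited, and open symbols give the same after 4 rescalings of the columns. The testis bar is the higher one from 100 RPKM upward as deposited; with both columns set to an equal sum, the triangles pointing down, it is so at 1000 RPKM or more only.

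The counts of ovary-high genes depended on how the columns were scaled, and those of testis-high genes much less. Scaling by the median of ratios over the 12706 genes above 0 in both gonads moved testis relative to ovary by 1.27 on the log2 scale and brought the median ratio of all genes from -0.83 to -0.07. With this scaling 65.5% of the called genes were testis-high, against 34.3% as deposited. Scaling by the upper quartile gave 51.4% and scaling to an equal sum gave 26.2%. The larger side turned with the median of ratios in the stratum of 10 to 100 RPKM, where 1045 genes were testis-high and 665 ovary-high, and with the equal sum in that of 100 to 1000 RPKM, where 408 were testis-high and 457 ovary-high. At 1 to 10 RPKM ovary-high genes were the larger group, and at 1000 RPKM or more testis-high genes were, under all 4 rescalings.

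A set of genes that does not use the gonad columns was examined for their scale, a choice made after the data were seen. In total 488 genes stood at 10 RPKM or more in all 6 other columns and varied by at most 3-fold among them. Their medians were 23.4 RPKM in testis and 54.9 in ovary, and their median log2 ratio was -1.20 (quartiles -1.73 and -0.50). Of the 488, 427 had a ratio below 0, 2 were testis-high and 86 were ovary-high. Among all 15446 genes, 1602 (10.4%) were testis-high and 3068 (19.9%) ovary-high. The median log2 ratio was -0.83 over all genes and -1.39 over the genes at 10 to 100 RPKM. The median of the set lay between these values, so its shift toward ovary was not particular to the set. What set it apart was the small number of testis-high genes. Counted under the deposited scale and all 4 rescalings together, 1498 genes were testis-high and 1120 ovary-high. These are the counts of the most severe scaling for each side, the equal sum for testis and the median of ratios for ovary. Each rescaling moves all genes by 1 factor, so the joint count adds no further check. As the sides were cut by different scalings, their counts are not directly comparable. The 1498 comprised all 81 of the highest stratum, 473 of the 485 at 100 to 1000 RPKM, 862 of the 919 at 10 to 100 and 82 of the 117 at 1 to 10. The 1120 comprised 25 of 28, 150 of 304, 762 of 2075 and 183 of 661 in the same order of strata.

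The size of the differences had another shape on each side. On the ovary side the counts thinned out steadily with size, with 3068 genes at 4-fold or more, 1080 at 8-fold, 388 at 16-fold, 151 at 32-fold, 63 at 64-fold and 39 at 128-fold. On the testis side 1602 genes passed 4-fold, 1280 passed 8-fold and 819 passed 16-fold, but 135 passed 32-fold, 10 passed 64-fold and 3 passed 128-fold. The largest log2 ratio was 7.20 and the smallest -12.25. Measured against the carcass pair stratum by stratum, 44.4% of the genes at 1000 RPKM or more differed between the gonads by more than the range that held 95% of the carcass genes of that level (a log2 difference of 4.91), namely 34 on the testis side and 21 on the ovary side. At 100 to 1000 RPKM that range was 3.87 and 41.2% of genes lay beyond it, 410 on the testis side and 120 on the ovary side. At 10 to 100 RPKM the range was 2.79, with 782 genes beyond it on the testis side and 1006 on the ovary side. The carcass range includes the difference of sex and is no measure of replicate error.

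RPKM were concentrated in far fewer genes in testis than in ovary. The genes needed to reach 50% of the column's RPKM sum were 47 in testis, 260 in ovary, 51 in intestine and from 104 to 882 in the 5 other columns. To reach 90% took 1808 genes in testis and 4348 in ovary. The 100 highest genes held 58.6% of the sum in testis and 38.8% in ovary. The single highest gene held 5.84% in testis and 4.14% in ovary, and without it the 100 highest of the rest held 56.1% of the remaining sum in testis and 36.3% in ovary. The level at the tenth rank was 14134.3 RPKM in testis and 5608.0 in ovary, and at rank 100 it was 866.2 and 620.6. By rank 1000 the columns were alike, with 90.6 RPKM in testis and 84.8 in ovary, and at rank 5000 testis was lower, with 8.4 RPKM against 17.0 in ovary.

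The highest genes of the 2 gonads were largely different ones. The lists of the 100 highest genes shared 16, those of the 10 highest shared 1 and those of the 1000 highest shared 363. Of the 100 highest testis genes 88 were testis-high, and together the 100 held 58.6% of the testis sum and 9.84% of the ovary sum. Of the 100 highest ovary genes 51 were ovary-high, 5 were testis-high and 44 were neither, and the 100 held 25.3% of the testis sum and 38.8% of the ovary sum. All testis-high genes together, 10.4% of the table, made up 73.9% of the testis sum and 3.90% of the ovary sum. All ovary-high genes, 19.9% of the table, made up 2.26% of the testis sum and 49.6% of the ovary sum. The remaining 10776 genes held 23.8% of the testis sum and 46.6% of the ovary sum.

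**Figure D3:**
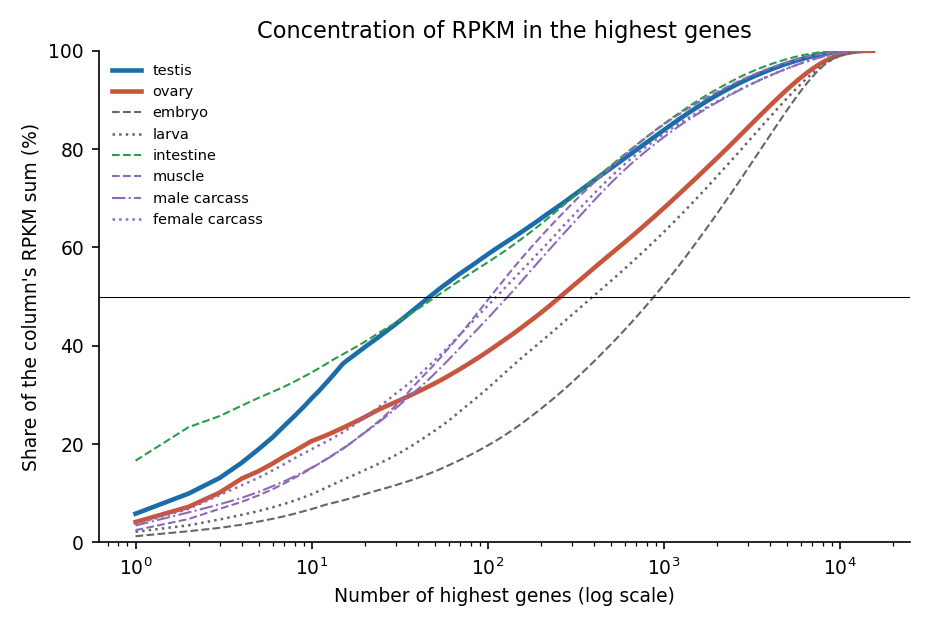
Curves give the share of a column's RPKM sum (%) held by its highest genes, against their number (log scale), with testis and ovary as thick lines and the 6 other columns as thin ones. Testis reaches 50% at 47 genes, close to intestine at 51, and ovary at 260.

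Because RPKM are scaled to the mapped reads of a library, the abundance of a few genes can bear on the values of the others. The column sums were 805257.8 RPKM in testis and 596733.0 in ovary, a ratio of 1.35. Without the 100 highest genes of each gonad, the remaining 15262 genes summed to 314612.6 RPKM in testis and 355027.0 in ovary, a ratio of 0.886. Setting these sums equal raised testis relative to ovary by 0.17 on the log2 scale, against 1.27 with the median of ratios. It gave 1655 testis-high and 2662 ovary-high genes. Testis had 10285 genes at 1 RPKM or more and ovary 12211, and 2447 genes were listed at 0 in testis against 1053 in ovary. The part of depth in these counts was not tested.

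The 2 most abundant genes of each side, called by their identifiers, show these levels gene by gene. ASG12930 stood at 47009.0 RPKM in testis and 1316.7 in ovary (log2 ratio 5.16), and elsewhere at 312.6 in male carcass, 0.7 in female carcass, 7.2 in muscle, 296.5 in intestine, 366.7 in larva and 8.7 in embryo. ASG08439 stood at 32985.0 RPKM in testis and 1143.4 in ovary (log2 ratio 4.85), and at 131.0 in male carcass, 4.5 in female carcass, 9.9 in muscle, 506.3 in intestine, 406.3 in larva and 33.6 in embryo. Both were lowest in female carcass, and their ovary values were 2.80% and 3.47% of testis. ASG00235 stood at 108.2 RPKM in testis and 24713.7 in ovary (log2 ratio -7.82), and at 207.2 in male carcass, 2077.2 in female carcass, 837.1 in muscle, 4.7 in intestine, 609.5 in larva and 1632.2 in embryo. ASG02507 stood at 37.7 RPKM in testis and 17183.4 in ovary (log2 ratio -8.79), and at 24.3 in male carcass, 1129.4 in female carcass, 432.1 in muscle, 0.9 in intestine, 371.6 in larva and 36.9 in embryo. Outside the gonads both ovary genes were highest in female carcass, followed by embryo for ASG00235 and by muscle for ASG02507, and their testis values were 0.438% and 0.219% of ovary.

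Abundant testis genes were present in ovary at a narrow range of percentages. Among the 89 that reached 1000 RPKM in testis, 69 (77.5%) stood in ovary at 2 to 6% of their testis value, and the median was 3.64% (quartiles 2.81% and 4.76%). Among the 814 genes at 100 to 1000 RPKM in testis the percentages had a peak in the same range and another near equality, with fewer genes throughout the range between. Of these, 23 lay below 2%, 379 (46.6%) at 2 to 6%, 45 at 6 to 10%, 39 at 10 to 25%, 52 at 25 to 50%, 214 at 50 to 200% and 62 above. None of the 903 that reached 100 RPKM in testis was listed at 0 in ovary.

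The reverse percentages had no such group. Among the 46 that reached 1000 RPKM in ovary, 20 stood in testis below 1% of their ovary value and 2 lay at 2 to 6%. For the 770 genes at 100 to 1000 RPKM in ovary the median was 33.9% (quartiles 13.5% and 68.1%), 55 (7.14%) lay at 2 to 6% and 36 below 1%. In total 12 genes at 100 RPKM or more in ovary were listed at 0 in testis. At 10 RPKM or more, 99 of 6756 ovary genes were listed at 0 in testis, and 15 of 4540 testis genes were listed at 0 in ovary.

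**Figure D4:**
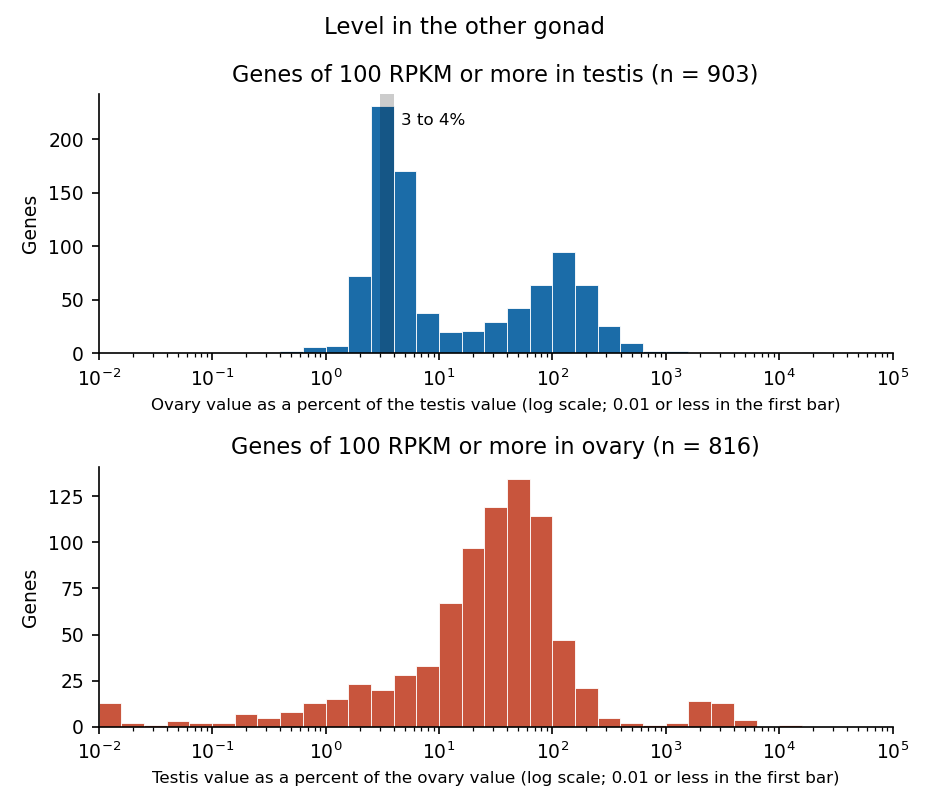
Histograms of the level in the other gonad (percent, log scale), with the 903 genes that reached 100 RPKM in testis above and the 816 that did so in ovary below. The upper panel has a peak at the shaded 3 to 4% and another near equality, and the lower panel has a single broad peak below 100%, with a small group at 1000% and more.

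A possible share of testis RNA in the ovary library was set at 3 to 4%, on these scales. The abundant testis genes below these and lower percentages were counted as a description only, without allowance for counting error. Among the 89 most abundant testis genes, 25 stood in ovary below 3%, 8 below 2% and 5 below 1%, and the lowest stood at 0.599%. Of the 814 genes at 100 to 1000 RPKM, 153 stood below 3%, 23 below 2% and 4 below 1%. The source of the ovary values of testis-high genes, including a testis share of any size, was not tested.

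Subtracting 3% or 4% of the testis value from ovary, with negative values set to 0, left the counts at the 4-fold rule nearly as they were. Testis-high genes numbered 1654 and 1680, of which 52 and 78 were not on the list as deposited, and ovary-high genes numbered 3024 and 3020. The subtraction removed 3.81% and 4.64% of the ovary sum, and the number of genes at 1 RPKM or more in ovary came to 11465 and 11239, against 12211 as deposited. What did change was the size of the testis differences. At 32-fold or more there were 759 and 856 genes on the testis side, against 135 as deposited, and at 128-fold or more 199 and 295, against 3. After subtraction 433 and 760 of the 1602 genes testis-high as deposited stood at 0 in ovary, against 48 before. The subtracted 3 to 4% lies around the median ovary percentage, 3.67%, of the 566 testis-high genes at 100 RPKM or more. Of these, 178 stood below 3% and 320 below 4%, so their fall to 0 was set in advance. The larger testis differences follow from the same step, and subtraction can only add testis-high genes. For genes at 0 the size of the difference is set by the testis level and the pseudocount. On the ovary side the counts at 32-fold and at 128-fold were 151 and 39 with and without subtraction. The ovary-high genes lost at most 0.973% of their ovary value. The 4-fold rule sets that limit in advance, because it keeps the testis value of these genes far below ovary. The small change in their count follows from the same rule.

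The number of testis-high genes at a given ovary level therefore depended on this allowance. Its size lies near the ovary percentages of these genes, so the counts do not decide whether they are expressed in ovary. As deposited, 1292 of the 1602 testis-high genes (80.6%) stood at 1 RPKM or more in ovary, and 521 (32.5%) at 5 RPKM or more. With 3% of testis subtracted 642 (40.1%) and 210 (13.1%) did, and with 4% subtracted 420 (26.2%) and 134 (8.36%) did. In the highest stratum all 81 testis-high genes stood at 5 RPKM or more in ovary as deposited, with a median of 86.7 RPKM, and 51 did so after subtraction of 3% and 22 after 4%. Among the 816 that reached 100 RPKM in ovary as deposited, 37 were testis-high, and 12 and 5 of the testis-high genes reached that level after the subtractions.

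Outside the gonads, testis-high genes were mostly low. Of the 1602 genes, 641 (40.0%) reached 5 RPKM in at least 1 of the 6 other columns, against 80.6% of all genes, and 309 (19.3%) stood below 1 RPKM in all 6, against 5.65% of all genes. The embryo column held the highest of the 6 values for 297 of the 641 (46.3%), near the 45.4% of all genes, larva for 136, intestine for 74, male carcass for 66, muscle for 43 and female carcass for 25. In 107 genes (6.68%) some other column exceeded testis, whereas 77.4% of all genes had a column above their higher gonad value. By number of columns at 5 RPKM or more, 961 of the 1602 had 0, 297 had 1 and 26 (1.62%) had all 6. Of all 15446 genes, 2992 had 0, 2299 had 1 and 3206 (20.8%) had all 6. The embryo column was the only one of the 6 at that level for 198 of the 1602 testis-high genes and 970 of all 15446.

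The level of the testis-high genes elsewhere changed with their testis level. At 10 to 100 RPKM, 188 of 919 (20.5%) reached 5 RPKM in the embryo column and 75 (8.16%) in larva, against 84.6% and 77.5% of all genes of that stratum. In the adult body it was 114 (12.4%) for male carcass, 85 (9.25%) for female carcass, 73 (7.94%) for muscle and 66 (7.18%) for intestine. At 1000 RPKM or more, 28 of 81 (34.6%) did so in the embryo column and 79 (97.5%) in larva. It was 77 (95.1%) for male carcass, 3 (3.70%) for female carcass, 8 (9.88%) for muscle and 53 (65.4%) for intestine. All 124 genes of that stratum, 81 of them testis-high, gave 50.8% for embryo, 98.4% for larva, 89.5% for male carcass, 33.9% for female carcass, 37.1% for muscle and 59.7% for intestine. As the testis-high genes make up most of that stratum, nearness to its totals says little. Its 28 ovary-high genes gave 71.4% for male carcass and 28.6% for intestine, and its 15 genes on neither side 93.3% and 86.7%. In larva all genes of both groups reached 5 RPKM. In embryo, female carcass and muscle the testis-high genes were below both groups. The absolute levels of the testis-high genes were small parts of the testis level. For the 81 genes the median was 1.15% of testis in larva (quartiles 0.846% and 1.32%), 0.635% in male carcass, 0.386% in intestine, 0.0777% in embryo, 0.0201% in muscle and 0.0136% in female carcass. The larva percentage was 1.27% (quartiles 1.01% and 1.63%) for the 485 genes at 100 to 1000 RPKM, where the embryo percentage was 1.07% and spread more widely (quartiles 0.450% and 3.90%). The part of testis RNA in the larva, male carcass and intestine values was not tested.

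Most ovary-high genes were also found outside the gonads. Of the 3068 genes, 2993 (97.6%) reached 5 RPKM in at least 1 of the 6 other columns, 2304 (75.1%) did so in at least 1 of the 4 adult somatic libraries, and 8 stood below 1 RPKM in all 6. The corresponding share of testis-high genes in adult soma was 22.2%, and that of all genes was 60.2%. Embryo held the highest of the 6 values for 1331 of the 2993 (44.5%), near the 45.4% of all genes, and larva for 943 (31.5%), against 24.1% of all genes. Intestine did so for 232, muscle for 226, female carcass for 150 and male carcass for 111. For 2184 of the 3068 (71.2%) some other column exceeded ovary, near the 77.4% of all genes. At 10 to 100 RPKM the share was 71.4% for ovary-high genes, 70.0% for all genes and 84.3% for genes on neither side. All 6 other columns were at 5 RPKM or more for 811 ovary-high genes (26.4%), against 20.8% of all genes.

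Ovary-high genes were also set beside all genes of the same level. At 10 to 100 RPKM, the share of ovary-high genes with 5 RPKM was 91.2% for embryo against 84.6% of all 6752 genes of the stratum, and 84.3% against 77.5% for larva. It was 61.9% against 61.0% for male carcass and 72.7% against 65.6% for female carcass. For muscle it was 51.9% against 50.1%, and intestine alone had a lower share, 45.4% against 49.6%. The called genes form part of those totals. The 3758 genes of the stratum on neither side were above the ovary-high genes in all 6 columns. Their share was 96.7% for embryo and 75.4% for female carcass. At 100 to 1000 RPKM the ovary-high genes were above all genes in the 6 columns, for example 92.1% against 72.1% in embryo and 91.8% against 63.8% in female carcass. The totals include the testis-high genes, which stood at 33.4% in embryo and 11.5% in female carcass. Genes on neither side were again above the ovary-high genes in the 6 columns, with 97.6% in embryo and 97.8% in female carcass. At 1000 RPKM or more the ovary-high genes reached 5 RPKM in 85.7% of cases for female carcass, 82.1% for muscle and 75.0% for embryo, above the stratum's 33.9%, 37.1% and 50.8%. They were below it for male carcass (71.4% against 89.5%) and intestine (28.6% against 59.7%), and all 28 reached it in larva, against 98.4%. Of the 15 genes of that stratum on neither side, 100% reached 5 RPKM for female carcass and muscle and 93.3% for embryo.

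The 28 most abundant ovary-high genes, at 1000 RPKM or more, were mostly highest in ovary. Another column exceeded ovary for 3 of them (10.7%), against 10.5% of all genes of that stratum. The total mixes 0 of the testis-high genes with 66.7% of the genes on neither side. At 100 to 1000 RPKM the share was 38.2% for ovary-high genes and 38.3% for all genes. There it was 1.44% for testis-high genes and 74.4% for genes on neither side. Female carcass was the highest of the 6 other columns for 13 of the 28, larva for 8, embryo for 6 and intestine for 1. Among all 124 genes of the stratum, female carcass was so for 14 and larva for 67. Relative to ovary, their median was 7.37% in female carcass, 2.50% in muscle, 2.47% in larva (quartiles 2.10% and 3.85%), 2.45% in embryo (quartiles 0.199% and 25.2%), 0.548% in male carcass and 0.0269% in intestine. Their testis value was at a median of 0.503% of ovary. The ovary-high genes at 100 to 1000 RPKM were far nearer to their ovary level elsewhere, with a median of 57.2% for embryo and 28.9% for larva. Among the adult body libraries it was 12.6% for male carcass, 24.0% for female carcass, 9.57% for muscle and 9.0% for intestine.

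**Figure D5:**
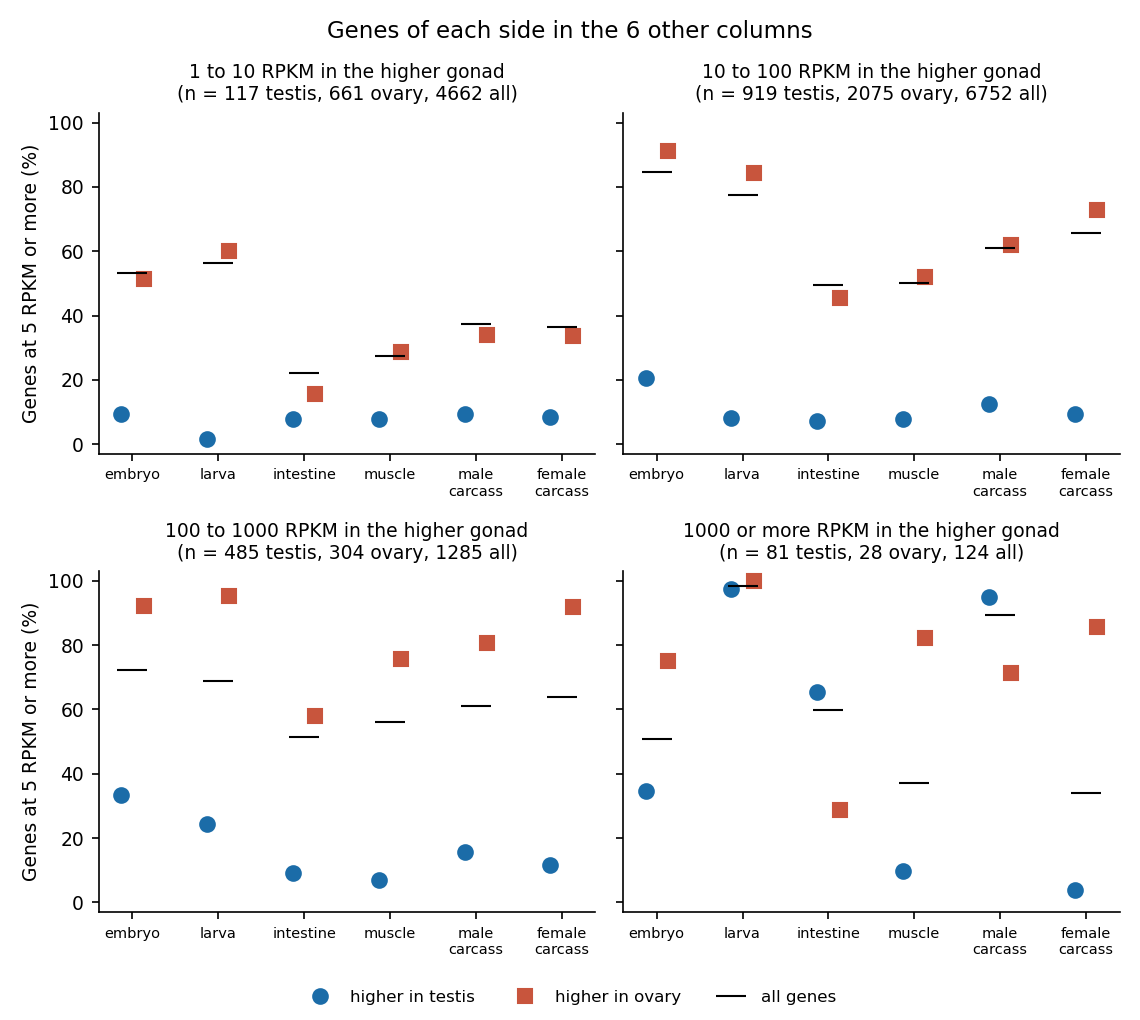
Points give the percentage of testis-high (blue circles) and ovary-high genes (red squares) at 5 RPKM or more in each of the 6 other columns, in 4 panels by the higher gonad value, and black dashes give all genes of the panel. Testis-high genes are the lower ones in each column up to 1000 RPKM; in the highest panel they stand at 97.5% in larva and 95.1% in male carcass but 3.70% in female carcass.

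The carcass of the same sex had the higher level of the abundant genes of each gonad. Of the 81 testis-high genes at 1000 RPKM or more, 80 were higher in male than in female carcass, with medians of 17.5 RPKM in male and 0.6 in female carcass, and 68 differed at least 4-fold in that direction. Of the 28 ovary-high genes at that level, 2 were higher in male and 26 in female carcass, with medians of 22.1 RPKM in male and 271.0 in female carcass, and 19 were at least 4-fold higher in female carcass. The contrast was weaker at lower levels. At 10 to 100 RPKM, 614 testis-high genes were higher in male and 231 in female carcass, with medians of 0.6 and 0.2 RPKM, and 705 ovary-high genes were higher in male and 1350 in female carcass, with medians of 7.1 and 9.1 RPKM. Over all 15446 genes 7180 were higher in male and 7405 in female carcass, and 554 and 370 were at least 4-fold higher there. The part of gonad tissue in the carcass libraries was not tested.

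The pattern outside the gonads was also counted for the genes called under every scaling. These are the testis-high genes of the equal sum and the ovary-high genes of the median of ratios. Of the 1498 testis-high genes so defined, 572 (38.2%) reached 5 RPKM in at least 1 other column, 314 (21.0%) did so in adult soma and 76 (5.07%) were exceeded by another column. On the ovary side, 1089 of the 1120 (97.2%) reached 5 RPKM in at least 1 other column, 802 (71.6%) did so in adult soma and 687 (61.3%) were exceeded by another column. These shares lay within 10 percentage points of those of the deposited scale.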

How the data were processed

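Polyadenylated RNA was fragmented, copied with random primers and sequenced, per the labels' protocols. The authors deposited 1 table of RPKM values, rounded to 1 decimal, for 15446 genes in 8 columns. The submitters' processing notes name TopHat and Cufflinks. The sources used here give no versions, genome build, annotation, gene lengths or strandedness. Columns were assigned by sample titles, and the embryo column, which stands for 3 libraries, was used as the authors' embryo value. Columns of samples outside the series numbered 0. Depth is unknown, so no interval that needs it is given.

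From these values log2((testis + 1)/(ovary + 1)) was computed with a pseudocount of 1, which understates the differences of low genes. Counts used a log2 difference of 2, strata with edges at 1, 10, 100 and 1000 RPKM, and a level of 5 RPKM elsewhere. With 1 library per gonad no test was made. The counting was checked on copies of the ovary column with planted changes and no added noise, which tests its arithmetic only. Identifiers named are the 2 highest of each side. Members, rules and alternatives were chosen with earlier results of these data known. Lists of named genes could be matched to no identifier. Python 3.11.15, numpy 2.4.6 and pandas 2.3.3 were used. Alternatives were other pseudocounts, thresholds, levels, 4 rescalings, subtraction of 3% or 4% of testis from ovary, and columns or the highest gene left out. The set of evenly expressed genes and the set called under every scaling were chosen after the data were seen.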

Additional observations from a re-analysis of the deposited data

How the results depend on the processing

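In all, 55 alternatives were run over 9 results. The count of testis-high genes, 1602, stayed within 1.5-fold, from 1263 with a pseudocount of 5 to 2140 at a log2 threshold of 1. The count of ovary-high genes, 3068, was 5394 with a pseudocount of 0.1, 1245 with 5, 7007 at a log2 threshold of 1, 1080 at 3, 1744 with the upper quartile and 1120 with the median of ratios. Among genes of 100 RPKM or more, 63.0% of those called were testis-high; this was 54% at a threshold of 1, 72.8% at 3, 49.0% with the equal sum, 80.8% with the upper quartile, 88.4% with the median of ratios and 68.5% with the equal sum without the 100 highest genes. The share of the 100 highest genes was 58.7% in testis and 38.9% in ovary over genes of 1 RPKM or more, 56.1% and 36.3% without the highest gene, and 39.9% in ovary with 4% of testis subtracted. Testis-high genes reaching the level in another column, 40.0%, came to 80.7% at 1 RPKM, 26.0% at 10 RPKM, 36.6% at a threshold of 3, 51.7% with the median of ratios, 27.7% without embryo and 37.2% without larva. For ovary-high genes, 97.6%, these were 99.7% at 1 RPKM, 91.6% at 10 RPKM, 98.1% at a threshold of 3, 92.5% without embryo and 90.7% without larva. The other 27 values moved by less than 1.5-fold (counts) or stayed within the 95% Wilson interval of the share as reported. That interval treats genes as independent draws and measures no spread between libraries. The causes of these shifts were not tested beyond the construction of each alternative. Depth is unknown, and no spread between libraries of 1 gonad could be measured.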

Other observations

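Genes with neighbouring identifier numbers often fell on the same side. Of the 1602 testis-high genes, the next identifier was also testis-high for 457 (28.5%), against 10.4% of the table, and of the 3068 ovary-high genes the next was ovary-high for 851 (27.7%), against 19.9%. The sources used here do not say what the order of the identifiers follows.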
